A study of Homo sapiens with 6 samples.

Results

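The 10 genes described here, CHI3L1, CD44, VIM, FN1, SPARC, TNC, SPP1, THBS1, LGALS1 and POSTN, are widely used markers of the mesenchymal state of glioma, and were chosen by name from the 32299 genes of the deposited table. Each had 1 row there, and 9 of the 10 had enough counts to be among the 17927 genes tested. RNA was sequenced from U87, an established human glioblastoma cell line, in 6 libraries, 3 from cells whose label reads control vector and 3 from cells labelled for overexpression of tau, a microtubule-binding protein. All 6 share the cell line, and the labels used here give no time, dose, tau construct, promoter or clone. The libraries are called control-labelled and tau-labelled, and a gene that rose was higher in the tau-labelled ones.

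Glioblastomas are sorted by expression into proneural, classical and mesenchymal states, and the mesenchymal state combines genes of wound healing, matrix and inflammation. Vimentin, encoded by VIM, builds intermediate filaments of the cytoskeleton, and CD44 is a cell surface receptor for hyaluronan. CHI3L1 (also called YKL-40) is a secreted chitinase-like glycoprotein, and LGALS1, galectin-1, binds sugars of cell surface proteins. Fibronectin (FN1), tenascin-C (TNC), SPARC, osteopontin (SPP1), thrombospondin-1 (THBS1) and periostin (POSTN) are secreted into the matrix, where several of them are bound by integrins.

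Total counts ran from 58229083 to 65512119 per library. MAPT, the gene that encodes tau, ran against the labels. Its counts were 279, 391 and 345 under the control label but 145, 150 and 176 under the tau label, and its log2 fold change was -1.20 (SE 0.21, adjusted p = 0.00151 by edgeR). Each rise and fall given here takes the labels as they stand and would reverse if they had been exchanged, which was not tested. Whether the counts take in RNA from the introduced tau was not tested either. Whether the libraries are of separate cultures is not stated, so p-values measure only how these samples vary, and that variation may be technical. Markers of glial identity were mostly near 0: 5 of the 8 in the table stayed below 1 FPKM in every library. Of the 5 tested 4 fell, or 2 without tau-labelled library 1 or 2, beside 21.4% of all genes tested. Those near 0 include GFAP at 0.136 FPKM in the control-labelled and 0.0595 FPKM in the tau-labelled mean, SOX2 and S100B. NES and SOX9, given below, were among those that stood higher. The 8 summed to 20.9 to 21.9 FPKM in the control-labelled and 11.4 to 11.9 FPKM in the tau-labelled libraries. On the first principal component of log2 CPM, with 59.9% of the variance, the libraries fell apart by label.

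The sequences just before the transcription starts of 3 markers that were lower and 2 that were higher in the tau-labelled libraries are shown, since these 5 differed by group and their promoters are where transcription begins. They are taken from RefSeq (GRCh38.p14, 5′ to 3′ along the gene's strand), which held a promoter for 9 of the 10 genes and none for LGALS1. Each covers up to 250 bases before the RefSeq start, trimmed where it entered the gene as the deposited table bounds it. Capitals mark matches to 8 motifs on either strand. The promoter of TNC, which also fell, is not shown.
CHI3L1 promoter, chr1:203186705-203186954, minus strand: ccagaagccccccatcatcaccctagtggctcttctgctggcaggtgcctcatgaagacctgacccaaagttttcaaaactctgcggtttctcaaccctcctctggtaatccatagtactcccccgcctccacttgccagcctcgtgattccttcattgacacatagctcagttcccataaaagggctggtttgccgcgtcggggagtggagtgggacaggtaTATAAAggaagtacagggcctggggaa
SPARC promoter, chr5:151686976-151687165, minus strand: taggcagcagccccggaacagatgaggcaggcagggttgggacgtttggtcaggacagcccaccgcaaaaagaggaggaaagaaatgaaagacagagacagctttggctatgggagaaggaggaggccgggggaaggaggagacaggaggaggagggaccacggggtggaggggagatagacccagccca
THBS1 promoter, chr15:39580829-39581078, plus strand: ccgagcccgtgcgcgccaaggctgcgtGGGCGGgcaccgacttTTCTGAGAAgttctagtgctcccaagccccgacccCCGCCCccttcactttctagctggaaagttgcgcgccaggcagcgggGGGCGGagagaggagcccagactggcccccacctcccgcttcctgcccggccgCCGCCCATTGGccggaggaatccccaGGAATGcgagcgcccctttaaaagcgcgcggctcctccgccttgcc
VIM promoter, chr10:17227991-17228240, plus strand: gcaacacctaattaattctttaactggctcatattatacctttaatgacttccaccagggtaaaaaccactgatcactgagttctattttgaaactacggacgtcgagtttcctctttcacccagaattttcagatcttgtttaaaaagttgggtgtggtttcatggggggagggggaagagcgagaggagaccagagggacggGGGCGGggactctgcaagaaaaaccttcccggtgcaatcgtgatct
SPP1 promoter, chr4:87975464-87975666, plus strand: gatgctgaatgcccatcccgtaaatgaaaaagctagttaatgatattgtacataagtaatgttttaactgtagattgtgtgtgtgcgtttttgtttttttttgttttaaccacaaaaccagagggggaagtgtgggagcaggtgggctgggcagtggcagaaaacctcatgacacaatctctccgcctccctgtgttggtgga

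The motifs searched were the TATA box (TATAAA), the CCAAT box (CCAAT), the GC box (GGGCGG), the AP-1 site (TGANTCA), the core of the hypoxia response element (ACGTG), the STAT site (TTCNNNGAA), the NF-kB site and the TEAD site (GGAATG). CHI3L1 has a TATA box from 27 to 22 bases before its start, a motif that 10.7% of 35116 RefSeq promoters of that length hold. THBS1 has 4 GC boxes, held at least once by 42.6% of promoters, and a STAT match (6.57%), a CCAAT box (32.0%) and a TEAD match (11.9%). In THBS1 the CCAAT box, from 66 to 62 bases before the start, directly adjoins a GC box and forms a single run of capitals with it. VIM has 1 GC box, and SPP1 has none of the 8 motifs in its whole window of 250 bases. GC boxes also lie in the promoters of TNC, FN1 and CD44, which are not shown, and FN1 and CD44 did not pass. SPARC has a TEAD match from 17 to 12 bases before the RefSeq start, in the part that was trimmed off and is not in the sequence shown. The 5 promoters also differ in base composition: GC content over the whole window is 69.6% in THBS1, 59.2% in SPARC, 54.0% in CHI3L1, 46.0% in VIM and 44.8% in SPP1. A match is a run of letters and was not tested for binding.

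The 10 markers did not move as 1 group. Of the 9 tested, 5 fell (CHI3L1, SPARC, THBS1, LGALS1 and TNC), 2 rose (SPP1 and VIM) and 2 did not pass (CD44 and FN1), where passing means an adjusted p below 0.05 (edgeR's quasi-likelihood test, Benjamini-Hochberg adjustment over all genes). Over all 17927 genes, 21.4% fell and 21.3% rose by the same rule. The median log2 fold change of the 9 was -0.30, beside 0.0044 over all genes. For 7 of the 9 the 3 libraries of a label lay wholly to one side of the other 3 by FPKM, beside 56.1% of all genes tested. Of the 9, 3 (CHI3L1, SPARC and THBS1) passed with a log2 fold change of 1 or more in size, as did 17.5% of all genes tested. In bulk RNA, fewer cells of a type and less RNA per cell cannot be told apart.

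**Figure D1:**
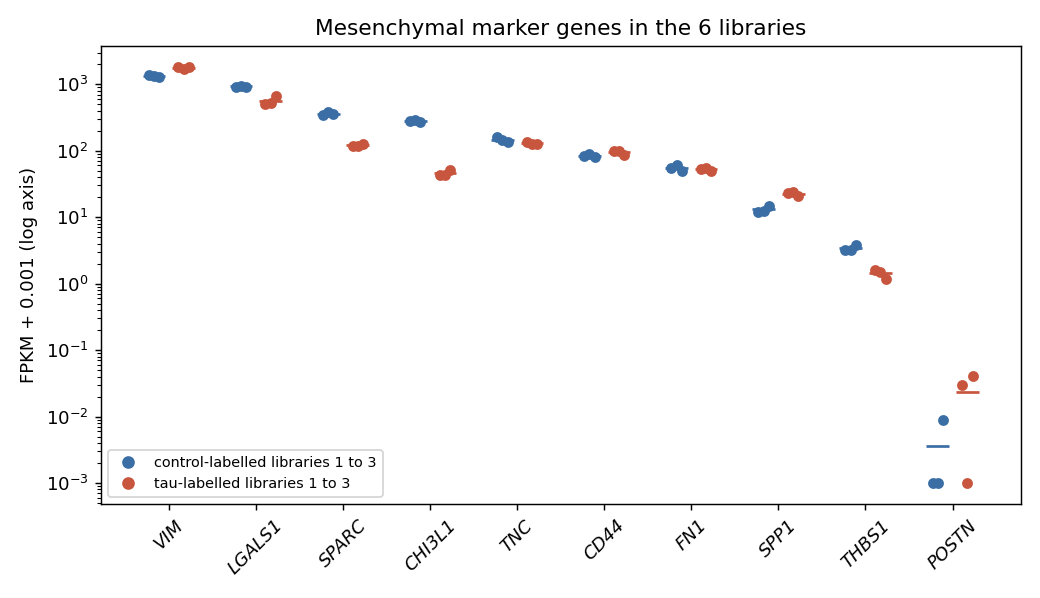
Level of each marker gene in the 6 libraries, as FPKM + 0.001 on a log axis, with the control-labelled libraries in blue and the tau-labelled ones in red. Points are libraries and bars are group means. CHI3L1 stands between 266 and 287 FPKM in the control-labelled libraries and between 42.9 and 50.8 in the tau-labelled ones, while CD44 and FN1 overlap.

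VIM (ENSG00000026025, chr10:17228241-17237593 on GRCh38, plus strand) was the most abundant of the markers and rose. FPKM, a level per length and per library, was 1379, 1353 and 1307 for VIM under the control label and 1791, 1726 and 1834 under the tau label, each for libraries 1, 2 and 3 in turn, as in all such series of values here. The groups did not overlap, and the standard deviation within a group was 36.3 and 54.7 FPKM. By edgeR's fit VIM rose 1.22-fold (95% interval 1.08 to 1.38, edgeR adjusted p = 0.0161). The call ended without control-labelled library 2 (edgeR adjusted p = 0.0849), control-labelled library 3 (0.0923) or tau-labelled library 1 (0.0587), and without the filter on low counts (0.0924), while the log2 fold change stayed between 0.23 and 0.43 in all 17 other settings. VIM-AS1, an antisense RNA that overlaps VIM, had at most 0.664% of the count of VIM in any library.

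CD44 (ENSG00000026508, chr11:35138882-35232402, plus strand) did not pass. Its level was 82.2, 90.1 and 81.7 FPKM in the control-labelled libraries and 99.5, 97.4 and 87.4 FPKM under the tau label. The ranges overlapped, since tau-labelled library 3 lay below control-labelled library 2. The fitted ratio was 1.03 (95% interval 0.895 to 1.19, edgeR adjusted p = 0.736), which leaves room for a change of up to that size in either direction. The sign of its log2 fold change of 0.04 turned to -0.02 without control-labelled library 3 and to -0.11 when GC content and length were fitted as offsets.

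CHI3L1 (ENSG00000133048, chr1:203178931-203186704, minus strand) had the largest fall of the 9 markers tested. Its level was 279, 287 and 266 FPKM under the control label against 42.9, 43.2 and 50.8 FPKM under the tau label. The lowest control-labelled library was far above the highest tau-labelled one. CHI3L1 fell 6.59-fold, a log2 fold change of -2.72 (SE 0.12, adjusted p = 8.1e-07 by edgeR), and 2.35% of all genes tested had a lower log2 fold change. In rank of mean FPKM among the tested genes it went from percentile 99.5 to percentile 95.3, still among the abundant transcripts. CHI3L2, a close relative of the same chitinase-like family, also fell, at a lower level, from 3.37 ± 0.277 to 1.22 ± 0.0641 FPKM (SD, n = 3 each).

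LGALS1 (ENSG00000100097, chr22:37675636-37679802, plus strand), next to VIM in abundance, was 924, 944 and 914 FPKM in the control-labelled libraries and 502, 522 and 671 FPKM under the tau label. The tau-labelled libraries were all lower and less alike, with library 3 above the other two. LGALS1 fell 1.78-fold (log2 fold change -0.83, SE 0.13, edgeR adjusted p = 0.000875). With offsets for GC content and length the log2 fold change was -0.35 (edgeR adjusted p = 0.00555). The LGALS1 transcript is the shortest of the 10, with 637 bases for its longest GENCODE form, and has the highest GC content of the 10 at 60.4%. Another galectin, LGALS3, the most abundant of the relatives after TGFBI and also in the MES1-like list below, stood at 66.1 ± 2.09 and 71.8 ± 5.70 FPKM (SD, n = 3 each) and did not pass.

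SPARC (ENSG00000113140, chr5:151661096-151686975, minus strand), a collagen-binding glycoprotein that loosens contact of cells with matrix, fell 3.26-fold. Its values were 340, 385 and 356 FPKM in the control-labelled libraries and 118, 116 and 126 FPKM under the tau label. The groups were far apart and the libraries of each were alike, with standard deviations of 22.3 and 4.91 FPKM. The log2 fold change was -1.70 (SE 0.09, edgeR adjusted p = 3.2e-06).

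THBS1 (ENSG00000137801, chr15:39581079-39599466, plus strand), an activator of latent TGF-beta and an inhibitor of blood vessel growth, was the least abundant of the markers that were tested. It stood at 3.23, 3.20 and 3.83 FPKM under the control label and at 1.60, 1.504 and 1.18 FPKM under the tau label. All 3 tau-labelled libraries were lower. THBS1 fell 2.60-fold (log2 fold change -1.38, SE 0.14, edgeR adjusted p = 8.7e-05), on 1894 to 2396 counts in the control-labelled and 759 to 944 in the tau-labelled libraries. FSIP1, which overlaps THBS1 on the other strand, had up to 8.17% of the count of THBS1, and reads of both cannot be told apart if the counting ignored strand.

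TNC (ENSG00000041982, chr9:115019575-115118257, minus strand), a matrix glycoprotein of developing and wounded tissue that modulates adhesion, fell slightly. It stood at 161, 144 and 136 FPKM under the control label and at 135, 126 and 128 FPKM under the tau label. The groups did not overlap, but the lowest control-labelled and the highest tau-labelled library nearly met. TNC fell 1.23-fold by the fit (log2 fold change -0.30, SE 0.10, edgeR adjusted p = 0.0385). This call ended in 12 of 17 other settings, including the omission of any library except control-labelled library 3 (log2 fold change from -0.33 to -0.21 in these, highest edgeR adjusted p = 0.147), library size alone, limma on FPKM, the replicate block and the GC and length offsets.

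FN1 (ENSG00000115414, chr2:215360440-215436073, minus strand), which forms the fibrils that integrins attach to, did not pass. It stood at 54.3, 61.8 and 50.4 FPKM under the control label and at 53.9, 55.3 and 49.6 FPKM under the tau label. The ranges overlapped. The fitted ratio was 0.878 (95% interval 0.747 to 1.03, edgeR adjusted p = 0.175). Its log2 fold change of -0.19 became -0.57 once GC content and length were fitted as offsets, and it then passed (edgeR adjusted p = 0.00603).

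SPP1 (ENSG00000118785, chr4:87975667-87983529, plus strand), a phosphorylated ligand of integrins and CD44, rose. It stood at 11.97, 12.5 and 14.8 FPKM under the control label and at 22.8, 24.3 and 20.5 FPKM under the tau label. Every tau-labelled library was higher than every control-labelled one. SPP1 rose 1.59-fold (log2 fold change 0.67, SE 0.11, edgeR adjusted p = 0.00103).

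POSTN (ENSG00000133110, chr13:37562585-37598844, minus strand), a matrix protein bound by integrins, was at or near 0. It had 0, 0 and 3 counts in the control-labelled libraries and 11, 0 and 16 in tau-labelled libraries 1, 2 and 3, at most 0.0394 FPKM, and did not reach the filter on low counts. In a library of this depth 3 counts, set here as a floor, amount to 0.0458 to 0.0515 CPM. The exact two-sided 95% counting interval of a count of 0 reaches up to 3.69 counts. Over each group the counts were 3 and 27, a ratio of 8.46 with an exact 95% counting interval of 2.60 to 43.6. The tau-labelled counts ranged from 0 to 16, and without the filter edgeR gave no call (adjusted p = 0.323).

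**Figure D2:**
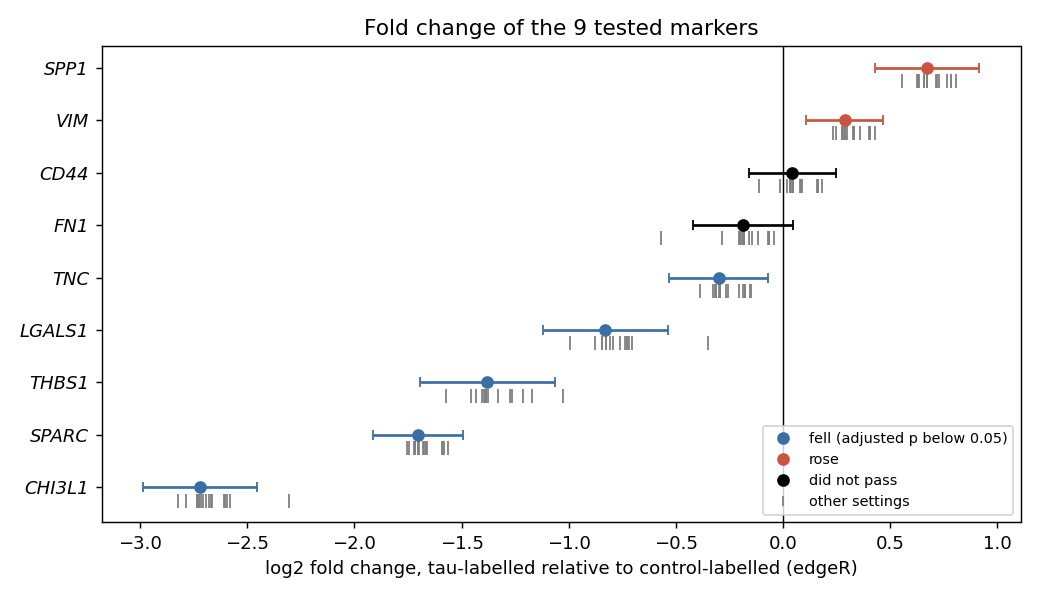
Log2 fold change of the 9 tested markers, tau-labelled relative to control-labelled. Points and bars give edgeR's estimate and its 95% interval, blue for genes that fell, red for genes that rose and black for genes that did not pass. Grey ticks give the 17 other settings (16 for THBS1). CHI3L1, SPARC, THBS1, LGALS1, TNC and FN1 stay below 0 and SPP1 and VIM above 0 in every setting. The ticks of CD44 fall on both sides.

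The order of the levels changed between the labels. In mean FPKM, the control-labelled order was VIM, LGALS1, SPARC, CHI3L1, TNC, CD44, FN1, SPP1, THBS1 and POSTN, and no neighbours in it had overlapping ranges. In the tau-labelled order TNC (130 ± 4.53 FPKM, SD, n = 3) preceded SPARC (120 ± 4.91 FPKM, SD, n = 3), and CHI3L1 stood below CD44 and FN1. CHI3L1 and FN1 overlapped there, and were the only neighbours that did. The ranges of TNC and SPARC barely cleared each other, at 126 to 135 and 116 to 126 FPKM.

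Together the 10 genes took nearly the same share of all counts under both labels, but VIM took more of it. The share was 1.51%, 1.53% and 1.45% in control-labelled libraries 1, 2 and 3 and 1.49%, 1.46% and 1.51% in tau-labelled libraries 1, 2 and 3. VIM supplied 49.2% to 50.8% of these counts in the control-labelled libraries and 66.2% to 67.4% in the tau-labelled ones. The other 9 genes took 0.719% to 0.778% of all counts in the control-labelled libraries and 0.491% to 0.497% in the tau-labelled ones. Shares of counts weigh a gene by its length as well as its level. By FPKM, which allows for length, the 10 genes together were lower under the tau label. Their FPKM summed to 3131 to 3280 in the control-labelled and 2712 to 2969 in the tau-labelled libraries. That was 1.12% to 1.17% and 0.972% to 1.08% of all FPKM.

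**Figure D3:**
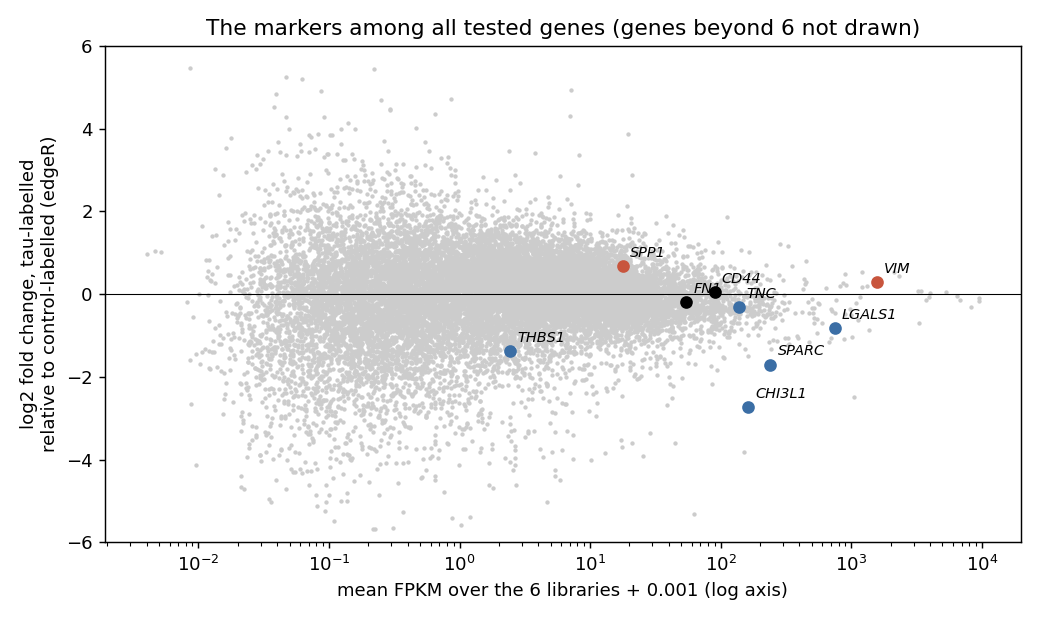
Mean FPKM over the 6 libraries (log axis, with 0.001 added) and log2 fold change of all tested genes in grey, with the 9 tested markers in blue (fell), red (rose) and black (did not pass). CHI3L1 at -2.72 and SPARC at -1.70 lie below most genes, and 79 genes beyond 6 on the log2 scale are not drawn.

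For each tested marker the 2 genes most like it were found among 6094 genes with a mean of at least 5 FPKM, by Pearson's r of log2 CPM over the 6 libraries. It ran from 0.918 to 0.9997 for those named, and takes in the difference between the labels, since the libraries form 2 groups. FAIM2 and CA9 were most like CHI3L1, ATP8B2 and TFB1M most like SPARC, ARMCX2 and LIX1L most like THBS1, and PIH1D1 and PRDX4 most like LGALS1. A high r does not mean a change of the same size. Beside a log2 fold change of -2.72 for CHI3L1, FAIM2 had -2.82 and CA9 -5.32. Beside -1.70 for SPARC, ATP8B2 had -1.67 and TFB1M -0.74. GMNN and RFC3 were most like SPP1, PRKAB1 and SSRP1 most like VIM, and EIF2B3 and NFYC most like TNC. KANSL2 and MTCO3P12 were most like CD44, and GBF1 and ZFP36L1 most like FN1, which with CD44 had the lowest values of r.

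Of 14 tested receptors of these ligands 5 rose and 5 fell, with a median log2 fold change of -0.0058. That is 35.7% in each direction, where 21.3% of all genes tested rose and 21.4% fell. IL13RA2, a receptor for interleukin-13 that also binds CHI3L1, stood at 17.9, 18.3 and 23.1 FPKM under the control label and at 59.2, 59.9 and 58.2 FPKM under the tau label. It rose by 1.47 on the log2 scale (SE 0.12, edgeR adjusted p = 2.3e-05), while its ligand gene fell. TMEM219, a partner of IL13RA2 in CHI3L1 binding, fell by 0.89 on that scale. Of the integrin subunits, ITGB1 rose by 1.47 on the log2 scale, from 11.7 ± 1.96 to 34.95 ± 3.70 FPKM (SD, n = 3 each). ITGAV and ITGB3, which pair to bind SPP1, FN1 and THBS1, rose (log2 fold changes 0.72 and 0.34), and ITGA5, which pairs with ITGB1 to bind FN1, fell by 0.55. The other receptors that passed were SDC1, which rose by 0.37, and CALR, SDC4 and STAB1, which fell, STAB1 at no more than 0.0852 FPKM in any library. SDC1 and SDC4 were named after their values were seen. Without 1 library the counts ran from 3 to 5 that rose and from 2 to 6 that fell: 3 rose without control-labelled library 2 or 3 or tau-labelled library 1 or 2, 2 fell without control-labelled library 1 or tau-labelled library 2, and 3 fell without control-labelled library 2 or tau-labelled library 1.

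Among 20 tested relatives of the markers 13 fell and 1 rose, or 65.0% and 5.0%, beside 21.4% and 21.3% of all genes tested. The riser was SPOCK1, a proteoglycan of the SPARC family with a log2 fold change of 0.46, named after its value was seen, and it lost its call without tau-labelled library 1 or 2. NES, nestin, an intermediate filament protein of neural progenitors that assembles with vimentin, was at 12.1 ± 0.433 and 2.95 ± 0.201 FPKM (SD, n = 3 each) and fell, while VIM rose (NES log2 fold change -2.15, adjusted p = 3.5e-06 by edgeR). TGFBI, the relative of POSTN, stood at 191, 193 and 184 FPKM under the control label and at 87.9, 86.7 and 91.6 FPKM under the tau label and fell by 1.21. THBS2 and THBS3, relatives of THBS1, fell with log2 fold changes of -1.13 and -1.002, and SMOC1, a relative of SPARC, fell with -0.69. The list's median log2 fold change was -1.07, and 17 of its 27 genes in the table stayed below 1 FPKM in every library. Among the 6182 genes with a mean of at least 5 FPKM, 1708 fell and 1757 rose, with 5 relatives among the falls and 1 among the rises. Relatives below that level were not tested there.

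The wider mesenchymal programme was counted from a list of 43 other genes written after the published MES1-like signature of single glioblastoma cells. Of 42 tested, 16 fell (38.1%) and 8 rose (19.0%), beside 21.4% and 21.3% of all genes tested. The list's median log2 fold change was -0.04. GSN, gelsolin, which severs actin filaments, fell by 1.58 on the log2 scale, from 48.0 ± 1.03 to 17.4 ± 2.36 FPKM (SD, n = 3 each). EFEMP1, a matrix glycoprotein, APOE, the apolipoprotein, and TAGLN2, an actin-binding protein, fell with log2 fold changes of -1.60, -2.66 and -1.17. APOE was at a low level, with 244 to 280 counts in the control-labelled and 30 to 65 in the tau-labelled libraries (means 1.83 and 0.309 FPKM). ANXA2 and S100A10, which form a complex at the plasma membrane, fell with -0.69 and -1.05, and MT1E, a metallothionein, fell with -1.013. GFPT2, an enzyme of hexosamine synthesis, rose by 0.71. The most abundant of the list, S100A11 and MT2A, had log2 fold changes of -0.45, where it fell, and 0.25, where it did not pass. The number that rose depended on the scale: it was 14 with library size alone, 14 with limma on FPKM and 15 with limma on TPM, and 5 with the replicate block. It was also 5 without tau-labelled library 1 and 4 without tau-labelled library 2. Over all genes 4590 of 17927 rose with library size alone and 4013 of 11129 with limma on FPKM (0.5 added). With limma on TPM 4011 of 11129 rose, and with the replicate block 3181 of 17927. Without tau-labelled library 1 or 2, 2955 of 18617 and 2843 of 18656 rose.

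Genes of the MES2-like signature, which includes many genes induced by low oxygen, were counted next. Of 41 tested, 24 fell (58.5%) and 5 rose (12.2%), beside 21.4% and 21.3% of all genes tested. The list's median log2 fold change was -0.44. CA9, BNIP3, NDRG1 and SLC2A1, the glucose transporter GLUT1, fell with log2 fold changes of -5.32, -2.52, -3.36 and -1.99. LDHA, a lactate dehydrogenase subunit, fell by 1.06 on the log2 scale, and FTL, the ferritin light chain, stood at 3891 ± 162 and 3999 ± 559 FPKM (SD, n = 3 each) and did not pass. PPP1R15A, AKAP12, SQSTM1, HSPA9 and SERTAD1 rose and were named after their values were seen, and 3 rather than 5 rose without control-labelled library 3 or tau-labelled library 1.

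**Figure D4:**
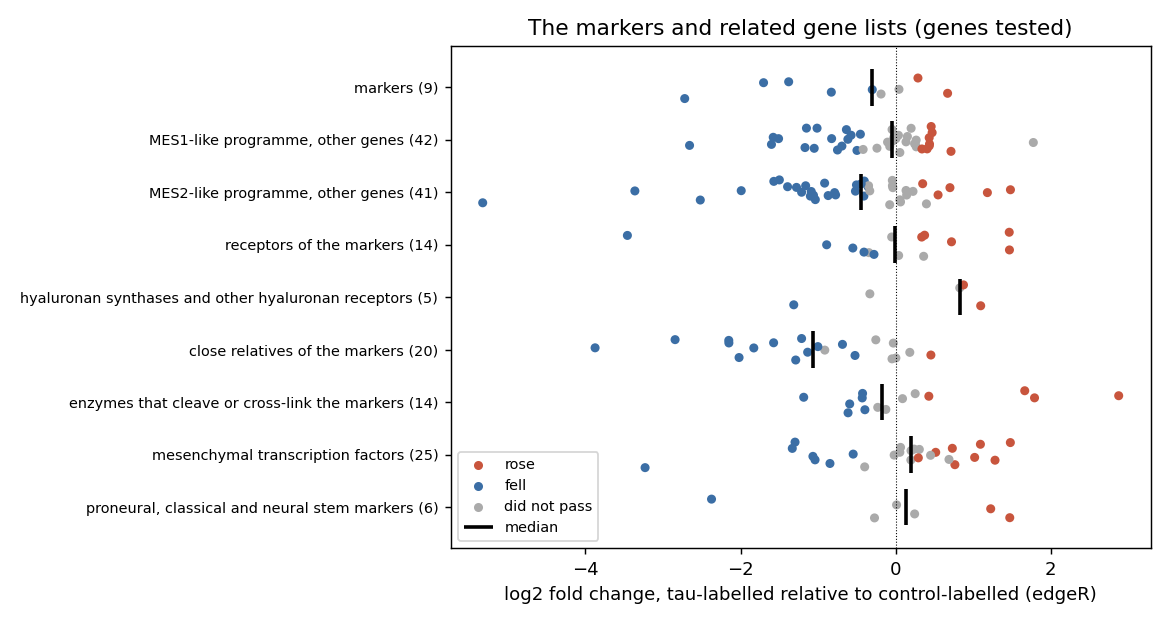
Log2 fold change of each tested gene in the markers and 8 related lists, with the number tested in brackets. Red genes rose, blue genes fell, grey genes did not pass, and black bars are medians. The medians of the markers (-0.30), of the MES2-like list (-0.44) and of the close relatives (-1.07) lie below 0. So do those of the enzymes (-0.18), the MES1-like list (-0.04) and the receptors (-0.0058).

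Transcription factors tied to the mesenchymal state did not share a direction. Of 25 tested, 8 rose (32.0%) and 7 fell (28.0%), beside 21.3% and 21.4% of all genes tested. The list's median log2 fold change was 0.20. STAT3, named after its value was seen, stood at 11.6 ± 0.554 and 12.5 ± 0.252 FPKM (SD, n = 3 each) and did not pass. CEBPB and CEBPD, which are named with STAT3 as regulators of this state, fell with log2 fold changes of -0.85 and -1.33. SNAI2, a repressor of epithelial genes, and BHLHE40 fell with -1.30 and -1.07. FOSL1, an AP-1 subunit, rose by 1.02, from 134, 95.9 and 77.1 FPKM in the control-labelled libraries to 221, 215 and 242 FPKM under the tau label, and TEAD4, a partner of YAP1, rose by 1.28. With limma on FPKM or TPM 13 factors rose. Over all genes tested in those settings 4013 (FPKM with 0.5 added) and 4011 (TPM) of 11129 rose.

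Enzymes that cleave or cross-link these proteins gave 4 rises and 6 falls among 14 tested, with a median log2 fold change of -0.18. These are 28.6% and 42.9%, beside 21.3% and 21.4% of all genes tested. ADAMTS1, a metalloprotease that can cleave thrombospondin-1, rose by 2.88 on the log2 scale, from 4.68 ± 0.976 to 37.4 ± 5.77 FPKM (SD, n = 3 each). MMP3 and MMP7, metalloproteases that can cleave osteopontin, rose (log2 fold changes 1.79 and 1.67). MMP2, the most abundant enzyme of the list, fell by 0.61, from 635 ± 40.4 to 450 ± 36.2 FPKM, and MMP14, its activator, fell by 0.40. PLAT, a plasminogen activator, fell by 1.19. The number that fell was 2 without tau-labelled library 1, 3 without control-labelled library 1 or tau-labelled library 2, and 3 with the replicate block.

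Around CD44, HMMR, another hyaluronan receptor that is also a mitotic spindle protein, rose by 0.88 on the log2 scale. The hyaluronan synthases HAS1 and HAS3 fell by 1.31 and rose by 1.10 respectively, both at low levels of at most 2.53 FPKM in a group mean. Of the 5 genes of this list that were tested 2 rose and 1 fell, with a median log2 fold change of 0.83, and 1 rose without control-labelled library 2 or tau-labelled library 1 or 2. Markers of the other glioma states were mostly near 0: 11 of 14 stayed below 1 FPKM in every library. Of the 6 tested 2 rose (33.3%) and 1 fell (16.7%), beside 21.3% and 21.4% of all genes tested, with a median of 0.13. EGFR, a receptor of classical glioma, rose by 1.47, from 4.10 ± 0.538 to 12.3 ± 2.52 FPKM (SD, n = 3 each), and NCAM1 rose by 1.23. PDGFRA, a receptor of the proneural state, fell by 2.37 from 0.210 FPKM, and SOX9 stood at 5.15 ± 0.546 and 6.64 ± 0.373 FPKM and did not pass.

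Markers of several other cell types also differed between the labels, and their part in the results above was not tested. The counts below stand beside 21.3% of all genes tested that rose and 21.4% that fell. Of 9 markers of pericytes and fibroblasts 4 fell and 1 rose (0 rose without control-labelled library 1 or 2 or tau-labelled library 2 or 3), and their summed level was 359 to 454 FPKM in the control-labelled and 147 to 164 FPKM in the tau-labelled libraries. COL1A2 and COL1A1 supplied most of it and fell with log2 fold changes of -1.503 and -1.83. Markers of microglia and macrophages summed to 6.56 to 7.12 and 1.58 to 1.70 FPKM, most of it CSF1R, and AIF1 had 0 counts in every library. Of the 4 tested 2 fell and 1 rose, and 2 rose without control-labelled library 1. Endothelial markers summed to 2.62 to 3.07 and 0.529 to 0.610 FPKM, 3 of 6 tested fell, and 6 of 7 stayed below 1 FPKM in every library. Markers of neurons and oligodendrocytes, of which 2 of 5 tested rose (1 without control-labelled library 2 or 3 or tau-labelled library 1 or 3), summed to 24.9 to 32.9 and 38.6 to 49.0 FPKM, most of it TUBB3, and MAG had 0 counts. Median log2 fold changes of these lists were -1.41, -0.09, -2.26 and 0.036, in the order given.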

How the data were processed

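Poly(A) RNA was made into strand-marked paired-end libraries, per the labels' protocols. The authors' deposited table gives whole-number counts and FPKM per gene and library. The submitters' processing notes name cutadapt 1.9, HISAT2 2.2.1, StringTie 2.1.6, DESeq2, edgeR and GRCh38; no source used here gives the counting tool, its use of strand or the annotation release. Each column was matched to its sample by title, and 0 columns were left over. The deposited FPKM equal the deposited counts divided by a gene length and a library factor (99.9% of ratios within 1% over 10677 well-counted genes), so counts were tested and FPKM show levels.

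Counts were tested with edgeR 4.0.16 (R 4.3.3; filterByExpr with a minimum count of 10 and total of 15, TMM, quasi-likelihood F-test, two-sided, group as the sole term, Benjamini-Hochberg adjustment over 17927 genes). Folds are fitted and carry TMM scaling, which FPKM does not. SE is the log2 fold change over the square root of F. Alternatives used DESeq2 1.42.0, limma 3.58.1 (log2 of FPKM or TPM plus 0.5 or 0.1, genes of mean FPKM of at least 1), other scalings and filters, a replicate block and omission of each library; offsets for GC content and length were chosen after seeing the data. Same-numbered libraries did not deviate together (r from -0.09 to -0.01), and no pair of libraries was alike within sampling noise. On simulated counts for this comparison (17907 genes), the test called 9 of 75 genes changed by 0.5, 39 of 63 by 1 and 54 of 62 by 2 on the log2 scale, and 0 of 17707 unchanged genes. Far fewer genes were changed there than the 42.7% called in the data, and each gene's spread was set by its level alone. The simulation checks that the code runs as meant and does not give the error rate of the calls made here. Intervals from counts treat each count as an independent read and cover counting error only.

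The markers and lists were chosen with earlier results of these data known. All 10 markers are named; in other lists the 4 genes with the smallest p among those that passed (up to 8 for the MES1-like list, receptors and relatives) and the 2 most abundant may be named. IDs and coordinates are those of the table.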

Additional observations from a re-analysis of the deposited data

How the results depend on the processing

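CHI3L1, SPARC, LGALS1 and SPP1 kept their direction and call in 17 other settings and THBS1 in the 16 that tested it; MAPT kept both in 13. TNC lost its call in 12 of 17 and VIM in 4. FN1 passed with GC and length offsets, and CD44 changed sign to -0.11 there and to -0.02 in 1 omission (from -0.0163 to 0.0816 over omitted libraries); the cause was not tested. The markers that rose numbered 1 without the filter on low counts and 1 to 2 when 1 library was left out; those that fell numbered 4 or 5 in every setting.

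The median over all genes moved by 0.11 (library size alone), 0.14 or 0.16 (limma on FPKM with 0.5 or 0.1 added) and 0.18 (TPM) on the log2 scale, where VIM was 0.40, 0.41, 0.41 and 0.43 beside 0.29. Genes that fell numbered 2330, 2317 and 2140 with limma on FPKM (0.5, 0.1) and TPM, where 63.3%, 63.2% and 65.2% of calls were rises beside 49.9%, and with genes of at least 5 FPKM 1757 rose and 1708 fell. Leaving out 1 library gave 2843 to 3803 rises and 2892 to 3920 falls. Fewer genes were tested in those limma and FPKM settings. Over the tested genes the correlation (rho) of log2 fold change with GC content of the transcript was -0.31. The offsets for GC content and length gave 4753 rises and 3723 falls over all genes, and 12 MES1-like and 12 factor rises.

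In the same limma settings rises numbered 14, 14 and 15 (MES1-like), 13, 13 and 13 (factors) and 1, 1 and 1 (hyaluronan genes), and falls 3, 3 and 2 (receptors), 6, 6 and 6 (relatives) and 0, 0 and 0 (proneural and classical markers). Over the 11129 genes tested in each of these limma settings, 4013, 3980 and 4011 rose and 2330, 2317 and 2140 fell. Library size alone gave 14 MES1-like rises, beside 4590 of 17927 genes. Without the filter 3 MES2-like genes and 1 hyaluronan gene rose and 2 receptors fell, beside 3218 rises and 3183 falls over 30148 genes. With at least 5 FPKM 1 hyaluronan gene rose and 0 fell, 5 relatives fell, and 1 proneural or classical marker rose and 0 fell. The replicate block gave 5 MES1-like, 3 MES2-like, 3 receptor and 1 hyaluronan rises and 3 enzyme falls, 3181 rises and 3139 falls over all genes, and a TNC log2 fold change of -0.30 (edgeR adjusted p = 0.0868); the labels do not say that a number pairs libraries. Over omitted libraries, rises ran from 4 to 8 (MES1-like), 3 to 5 (MES2-like), 3 to 5 (receptors), 1 to 2 (hyaluronan) and 0 to 1 (relatives), and falls from 2 to 6 (receptors) and 2 to 6 (enzymes). Glial identity markers that fell numbered 2 in the limma settings on FPKM and TPM and 1 with at least 5 FPKM. Depth limits POSTN, with at most 16 counts in a library.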

Other observations

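VIM-AS1, the antisense RNA that overlaps VIM on chromosome 10, was named after its values were seen. Its counts were 907, 1475 and 854 under the control label against 3960, 3656 and 2525 under the tau label. It rose 2.94-fold (log2 fold change 1.55, SE 0.26, edgeR adjusted p = 0.00118), beside 1.22-fold for VIM. Its level went from 7.63 ± 2.71 to 24.4 ± 6.54 FPKM (SD, n = 3 each), and the 3 tau-labelled libraries were all higher. VIM-AS1 and VIM lie on opposite strands, and no source used here says whether the counting kept them apart.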
